A study of Mus musculus with 14 samples.

Results

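The genes described here, Col1a1, Col1a2 and Col3a1, encode the chains of type I and type III collagen, and each was read at more than 1 transcript 3′ end in mouse 3P-seq libraries. Every plus-strand poly(A) site inside a fixed mm9 window was taken as an end of the gene: chromosome 11, 94797000 to 94816000, for Col1a1, chromosome 6, 4455000 to 4493000, for Col1a2, and chromosome 1, 45368000 to 45408500, for Col3a1. Over the 14 libraries these windows held 34 ends of the 159969 sites on record, namely 9 of Col1a1, 12 of Col1a2 and 13 of Col3a1. An end is described by its own values where it held at least 1% of the gene's tags over all libraries, or at least 5% in a library with at least 100 tags of the gene, which left 2, 3 and 2 ends.

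Fibrillar collagens are secreted as procollagen by fibroblasts and related mesenchymal cells, wind into a triple helix and assemble into the fibrils that carry tension in skin, bone, tendon and the stroma of organs. Type I collagen joins α1 chains, the product of Col1a1, with a smaller number of α2 chains, the product of Col1a2. Type III collagen, the product of Col3a1, is built of identical chains and is found beside type I in stretchable tissues such as vessel wall, lung and skin. A transcript is cleaved and given its poly(A) tail at a poly(A) site. Where a gene has several such sites behind its last coding exon, its transcripts differ in the length of the 3′ untranslated region, the stretch in which microRNAs and RNA-binding proteins pair or dock. Human fibroblasts are known for collagen transcripts of several lengths that arise in this way.

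The libraries came from miR-22 knockout and wild-type mice and from mouse cell lines. Heart, muscle, liver, lung, wat (white adipose tissue) and kidney each gave 1 knockout and 1 wild-type library, and mESC (embryonic stem cells) and 3T3 (a fibroblast line) gave 1 library each with no genotype stated. The knockout is the miR-22D allele of Gurha et al., and the strain background 129S5/SvEvBrd is listed for all samples, the cell lines included. Age, sex and the number of animals are not given in the sources used here, and the design text states that nothing was replicated biologically, so p-values rest on the spread between libraries and not between animals. miR-22 is encoded on mouse chromosome 11. Its mature strands are shown because they are what the knockout is meant to remove; capitals mark bases 2 to 8, the seed, and the sequences are RefSeq's on GRCm38.p6.
mmu-miR-22-3p: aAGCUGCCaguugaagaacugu
mmu-miR-22-5p: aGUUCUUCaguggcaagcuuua

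In 3P-seq each tag marks the 3′ end of 1 polyadenylated RNA, so levels of different genes can be set side by side without dividing by transcript length. Libraries held between 2036838 tags (knockout wat) and 6010465 tags (knockout lung), of which 2.43% (mESC) to 31.3% (knockout heart) lay on the mitochondrial genome. Levels below are tag counts per 1e6 tags after TMM scaling (CPM). No annotation of the build of the files was used here, so the gene names rest on the windows, the miR-22 locus was not located as a check on the genotype labels, and neither tissue markers nor other collagen and matrix genes were looked up. In bulk tissue a lower value can mean fewer collagen-making cells or less RNA per cell, and these cannot be told apart.

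Each of the 3 genes was highest in a different tissue, and liver was lowest for all of them. Col1a1, the α1 chain of type I collagen, was highest in muscle, with 364 CPM in the knockout and 761 CPM in the wild-type library. Lung followed with 165 CPM in knockout and 201 CPM in wild type. Wat held 73.8 CPM in knockout and 107 CPM in wild type, and heart 112 CPM in knockout and 29.0 CPM in wild type. These heart and wat values overlapped, whereas muscle stood above lung and lung above both of them in each library. Kidney was lower, at 15.7 CPM in knockout and 24.6 CPM in wild type. Liver was lowest, at 4.47 CPM in knockout and 3.29 CPM in wild type. From the muscle mean of 563 ± 280 CPM to the liver mean of 3.88 ± 0.83 CPM (SD, n = 2 each) the span was 145-fold. Scaled to all tags outside the mitochondrial genome, the gap between muscle and lung closed, since knockout muscle then held 301 CPM against 307 CPM in wild-type lung.

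Col1a2, the α2 chain of type I collagen, was flatter across tissues. Lung was highest, with 60.1 CPM in knockout and 53.3 CPM in wild type. Heart had 50.8 CPM in knockout and 19.0 CPM in wild type, and muscle 42.5 CPM in knockout and 25.3 CPM in wild type. Wat had 33.3 CPM in knockout and 23.5 CPM in wild type, so that heart, muscle and wat overlapped. Kidney, at 21.0 CPM in knockout and 14.4 CPM in wild type, overlapped only heart among them. Liver stood apart, with 2.55 CPM in knockout and 4.39 CPM in wild type, from 8 and 16 tags. The tissue means spanned 16.3-fold. Scaled to all tags outside the mitochondrial genome, kidney had 32.8 CPM in knockout and 20.9 CPM in wild type. Kidney then overlapped muscle (35.1 CPM in knockout and 17.7 CPM in wild type) and wat (43.7 and 30.0 CPM) as well as heart.

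Col3a1, the chain of type III collagen, was the most abundant of the 3 genes in all 12 tissue libraries. Wat was highest, at 1207 CPM in knockout and 2138 CPM in wild type. Muscle followed, at 804 CPM in knockout and 1405 CPM in wild type, and heart had 845 CPM in knockout and 287 CPM in wild type. Lung had 699 CPM in knockout and 382 CPM in wild type. Each of these tissues overlapped the next in this order. Kidney, at 53.2 CPM in knockout and 82.1 CPM in wild type, lay below all of them, and liver, at 48.8 CPM in knockout and 38.6 CPM in wild type, lay below kidney. The span from wat to liver was 38.2-fold. Scaled to all tags outside the mitochondrial genome, wat overlapped no other tissue, with 1582 CPM in knockout against 1172 CPM in knockout lung. The lung mean of 878 CPM then lay above that of muscle, 823 CPM, and of heart, 629 CPM, and these tissues overlapped.

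Both cell lines had a high Col1a1 level, and they parted at Col1a2. 3T3 had the highest Col1a2 of all libraries, 1356 CPM, beside 683 CPM of Col1a1 and 125 CPM of Col3a1. mESC had 386 CPM of Col1a1, above 11 of the 12 tissue libraries, but 6.60 CPM of Col1a2 from 21 tags and 1.26 CPM of Col3a1 from 4 tags. The exact Poisson 95% interval is 365 to 409 CPM for Col1a1 in mESC and 0.342 to 3.22 CPM for Col3a1, and such intervals cover counting error only. With 1 library per cell line neither was tested against the tissues.

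**Figure D1:**
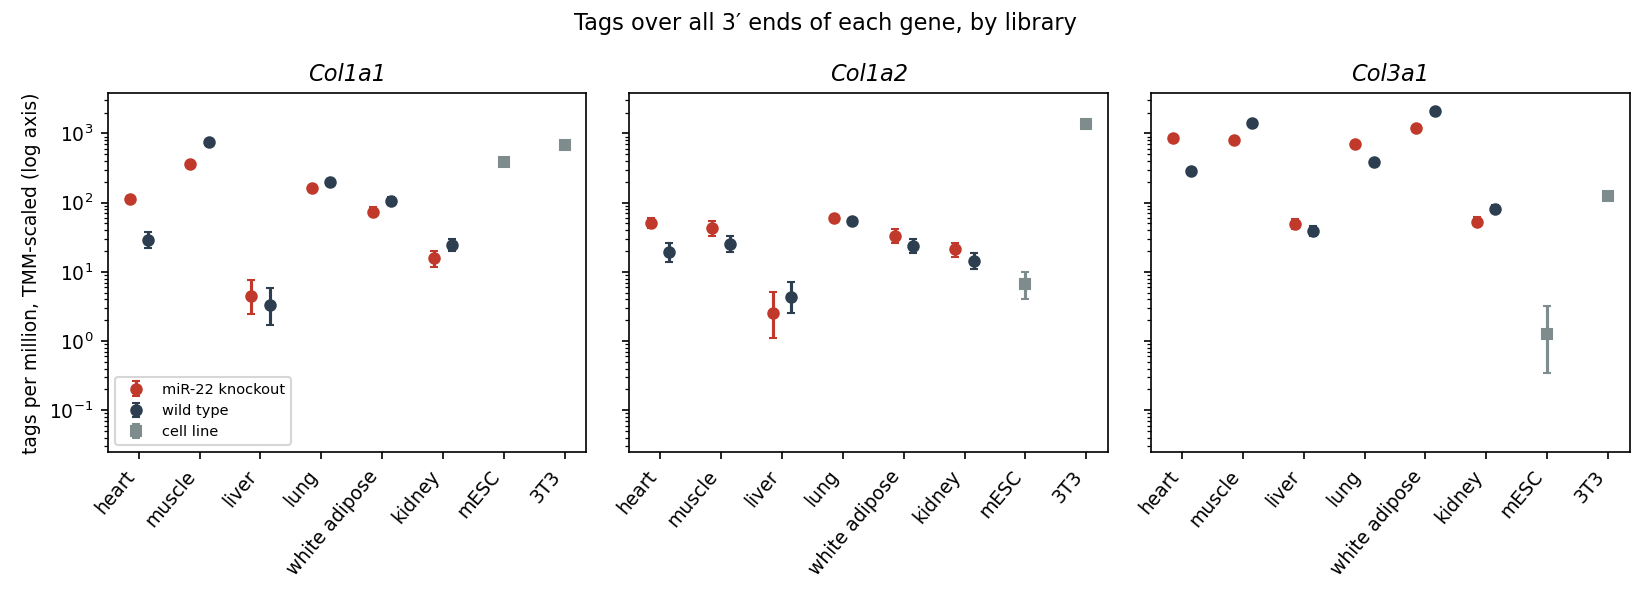
CPM (TMM-scaled, log axis) summed over all 3′ ends of each gene in the 14 libraries; red circles are miR-22 knockout, dark circles wild type, grey squares the cell lines, and bars are exact Poisson 95% intervals. By the mean of their libraries muscle is the highest tissue for Col1a1, lung for Col1a2 and wat for Col3a1, while liver is the lowest tissue in each panel; 3T3 lies above all tissue libraries for Col1a2.

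Each tissue was set against the mean of the other 5 in an edgeR quasi-likelihood fit with genotype as a term, and differences are log2 with their SE. In muscle Col1a1 rose by 3.83 ± 0.33 (adjusted p = 1.7e-15) and Col3a1 by 2.03 ± 0.33 (adjusted p = 8.6e-07), so 2 of 3 gene totals rose where 16.1% of all rows tested did. Col1a2 differed there by 0.71 ± 0.38 and was not called (adjusted p = 0.163). The median of all rows lay at -0.35 in muscle. Scaling to non-mitochondrial tags in place of TMM shifts differences by about -0.71 in muscle, 0.58 in lung, 0.47 in kidney, -0.32 in liver, -0.22 in heart and 0.21 in wat, and under it muscle had 3.08 for Col1a1 and 1.29 for Col3a1, both still called. In lung Col1a1 rose by 1.90 ± 0.34 (adjusted p = 6.3e-06) and Col1a2 by 1.65 ± 0.34 (adjusted p = 5.0e-05), 2 of 3 totals against 26.5% of all rows, while Col3a1 differed by 0.77 ± 0.35 (adjusted p = 0.0769) and passed only under alternatives such as non-mitochondrial scaling (1.32, adjusted p = 4.0e-04). In wat only Col3a1 was called, higher by 2.75 ± 0.32 (adjusted p = 1.7e-10), where 16.1% of all rows were higher.

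All 3 totals were lower in liver, where 15.6% of all rows were. Col1a1 fell by 4.76 ± 0.57 (adjusted p = 2.1e-10), Col3a1 fell by 3.58 ± 0.49 (adjusted p = 7.1e-09) and Col1a2 fell by 3.10 ± 0.51 (adjusted p = 7.4e-07). In kidney Col3a1 fell by 2.81 ± 0.46 (adjusted p = 9.2e-07) and Col1a1 fell by 1.93 ± 0.46 (adjusted p = 5.2e-04), 2 of 3 where 9.31% of all rows were lower. The Col1a1 call in kidney was lost without the knockout kidney library (-1.60, adjusted p = 0.059) and held without the wild-type one (-2.28, adjusted p = 0.00554). Col1a2 differed in kidney by -0.39 ± 0.40 (adjusted p = 0.524). Heart gave no call for any total by edgeR or by DESeq2, where 22.5% of all rows were called in either direction, with 1 of 3 (Col3a1, 0.84 ± 0.36, adjusted p = 0.0867) at an unadjusted p under 0.05. Without wild-type heart, the lower of the pair, Col3a1 rose by 1.57 (adjusted p = 0.00334). It also passed without wild-type muscle (0.93), wild-type wat (0.92) or knockout lung (0.97).

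The balance of the type I chains was uneven between tissues. Col1a1 had 8.58 tags per Col1a2 tag in knockout muscle and 30.0 in wild-type muscle, the highest ratios of the tissue libraries. Wat had 2.21 in knockout and 4.55 in wild type, lung 2.74 in knockout and 3.77 in wild type, and heart 2.21 in knockout and 1.52 in wild type. Kidney had 0.744 in knockout and 1.71 in wild type, and liver 1.75 in knockout and 0.75 in wild type from at most 16 tags of either gene. Both muscle libraries lay above the other 10, with a mean log2 ratio of 4.0 ± 1.28 (SD, n = 2) in muscle and 0.92 ± 0.86 (SD, n = 10) in the rest. An exact two-sided permutation test over single libraries gave p = 0.0303, the smallest that 66 splits allow. After Benjamini-Hochberg adjustment over the 6 tissues it was 0.182. The splits treated libraries as separate although they come in pairs of the same tissue, so p also reflects the likeness within a pair. With this few splits a single tissue cannot pass the adjustment. Neither value therefore decides whether the muscle ratio differs. The cell lines took the ends of the range, with 58.6 in mESC (95% interval 38.1 to 95.0) and 0.504 in 3T3 (0.480 to 0.528).

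Type III to type I balance varied as well. Wat had 16.3 Col3a1 tags per Col1a1 tag in knockout and 20 in wild type, the highest pair, and muscle 2.21 in knockout and 1.85 in wild type, the lowest pair by mean. Lung had 4.24 in knockout and 1.90 in wild type. 3T3 had 0.183 and mESC 0.00325, so in both cell lines Col1a1 outnumbered Col3a1, which no tissue library showed. Over the 12 tissue libraries, which come in pairs of the same tissue and differ in depth, the Pearson correlation of log2(CPM + 1) was 0.82 between Col1a1 and Col1a2, 0.86 between Col1a1 and Col3a1 and 0.73 between Col1a2 and Col3a1. With the cell lines included (14 libraries) these were 0.65, 0.30 and 0.38.

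Col1a1 transcripts ended at a proximal site, at 94813159 (interval 94813017 to 94813167), and at a distal site 1194 nt further on, at 94814353 (interval 94814321 to 94814358). The distal end held 95.4% of the gene's tags over all libraries and the proximal end 4.25%. The proximal share was 12.1% in knockout and 29.7% in wild-type heart, 10.1% in knockout and 9.31% in wild-type lung, and 0.359% in knockout and 0.178% in wild-type muscle. Muscle thus had the lowest proximal shares, and the heart and lung libraries had higher ones than any library of muscle, wat or kidney. Wat had 5.58% in knockout and 2.64% in wild type, and kidney 6.90% in knockout and 1.92% in wild type. Liver had 14.3% in knockout and 41.7% in wild type, but from 14 and 12 tags, and the exact binomial 95% interval in wild type ran from 15.2% to 72.3%. 3T3 had 1.82% (95% interval 1.35% to 2.41%). In mESC 0 of 1230 tags lay at the proximal end, with a 95% interval of up to 0.299%.

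In tags, the proximal end was sparse in muscle, the tissue where the distal end was most abundant. The proximal end had 1.31 CPM in knockout and 1.36 CPM in wild-type muscle, from 2 and 3 tags, against 363 CPM in knockout and 760 CPM in wild-type muscle at the distal end. In lung it had 16.6 CPM in knockout and 18.7 CPM in wild type, the highest of all libraries, and in heart 13.5 CPM in knockout and 8.60 CPM in wild type. In 3T3 it had 12.5 CPM. The distal end also showed small shifts in position. Its most abundant interval ended at 94814353 in 3T3 and in the tissue libraries other than liver, at 94814358 in both liver libraries (12 tags in knockout and 7 in wild type), and at 94814349 in mESC (1229 tags). In mESC the most abundant interval of Col1a2 (18 tags) ended at 4491008, as in both wat libraries and 3T3, and that of Col3a1 (4 tags) at 45405862, as in all other libraries. The other 7 ends of Col1a1 held 33 tags in all, 0.325% of the gene, and 3 of them were seen only in 3T3.

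Col1a2 transcripts ended at 3 sites: an upstream end at 4490672 (interval 4490568 to 4490728), a middle end 336 nt further at 4491008 (interval 4490737 to 4491011) and a distal end another 522 nt further at 4491530 (interval 4491460 to 4491530). The middle end held 72.4% of the gene's tags over all libraries, the upstream end 21.0% and the distal end 5.50%. As 3T3 gave 5225.5 of the 6824.5 tags of the gene, these pooled shares mostly describe 3T3, the upstream share above all. In the tissue libraries the distal share was never below 6.25%. The distal share varied widely among tissues. It was 55.4% in knockout and 32.1% in wild-type muscle, and 33.3% in knockout and 42.6% in wild-type kidney. It was 23.4% in knockout and 7.14% in wild-type heart, and 13.6% in knockout and 24.0% in wild-type wat. Lung had 9.83% in knockout and 14.1% in wild type. Muscle and kidney thus lay above the heart, lung and wat libraries, all with at least 42 tags of the gene. Liver had 25% in knockout and 6.25% in wild type from 8 and 16 tags. 3T3 had a distal share of 1.69% (95% interval 1.35% to 2.07%), below every tissue library, and mESC one of 9.52% (2 of 21 tags, 95% interval 1.17% to 30.4%), an interval that covers most tissue libraries.

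The upstream end set 3T3 apart. It took 25.8% of Col1a2 tags in 3T3 (95% interval 24.6% to 27%), or 350 CPM. In the tissues its share ran from 3.62% to 12.5% in knockout libraries and from 3.28% to 18.8% in wild-type libraries, and its level from 0.319 CPM in knockout liver to 4.12 CPM in knockout wat. In mESC 0 of 21 Col1a2 tags lay there, with a 95% interval of up to 16.1%. Nearly all its 3T3 tags, 1341 of 1348, lay in a single deposited interval that ended at 4490672. How reads were grouped into intervals is not given. The other 9 ends of Col1a2 held 73 tags, 1.07% of the gene. Of these 9, 7 were seen only in 3T3, and the largest, at 4489704, held 34 tags in 6 libraries.

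The middle end of Col1a2 was itself broad. Its 2 most abundant positions over all libraries, among those at least 20 nt apart, were 4490961 and 4491008, 47 nt apart. The site was divided midway between them into an upstream and a downstream cluster. This choice was made after the values were seen, so the shares are a description and were not tested. The upstream cluster did not peak at the same position in all tissues. Its most abundant interval ended at 4490961 in lung, heart, kidney and wild-type liver. It ended at 4490973 in wat and wild-type muscle, at 4490979 in knockout muscle and at 4490972 in knockout liver. The downstream cluster held 65.4% of the tags of the middle end in knockout and 72.7% in wild-type muscle, and 61.0% in knockout and 76.0% in wild-type wat. In lung it held 19.6% in knockout and 19.0% in wild type, from 500 and 290 tags. The larger share thus lay downstream in muscle and wat and upstream in lung, in both genotypes. The middle end held 26 tags in knockout and 33 in wild-type muscle, and 59 in knockout and 50 in wild-type wat. In the knockout libraries the 95% interval of the downstream share, 44.3% to 82.8% in muscle and 47.4% to 73.5% in wat, included an even split. Heart had 41.3% in knockout and 23.5% in wild type, kidney 51.1% in knockout and 18.2% in wild type, and liver 40.0% in knockout and 25% in wild type from 5 and 12 tags. The cell lines ended almost wholly in the downstream cluster, with 98% in 3T3 (95% interval 97.5% to 98.4%) and 18 of 18 tags in mESC.

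**Figure D2:**
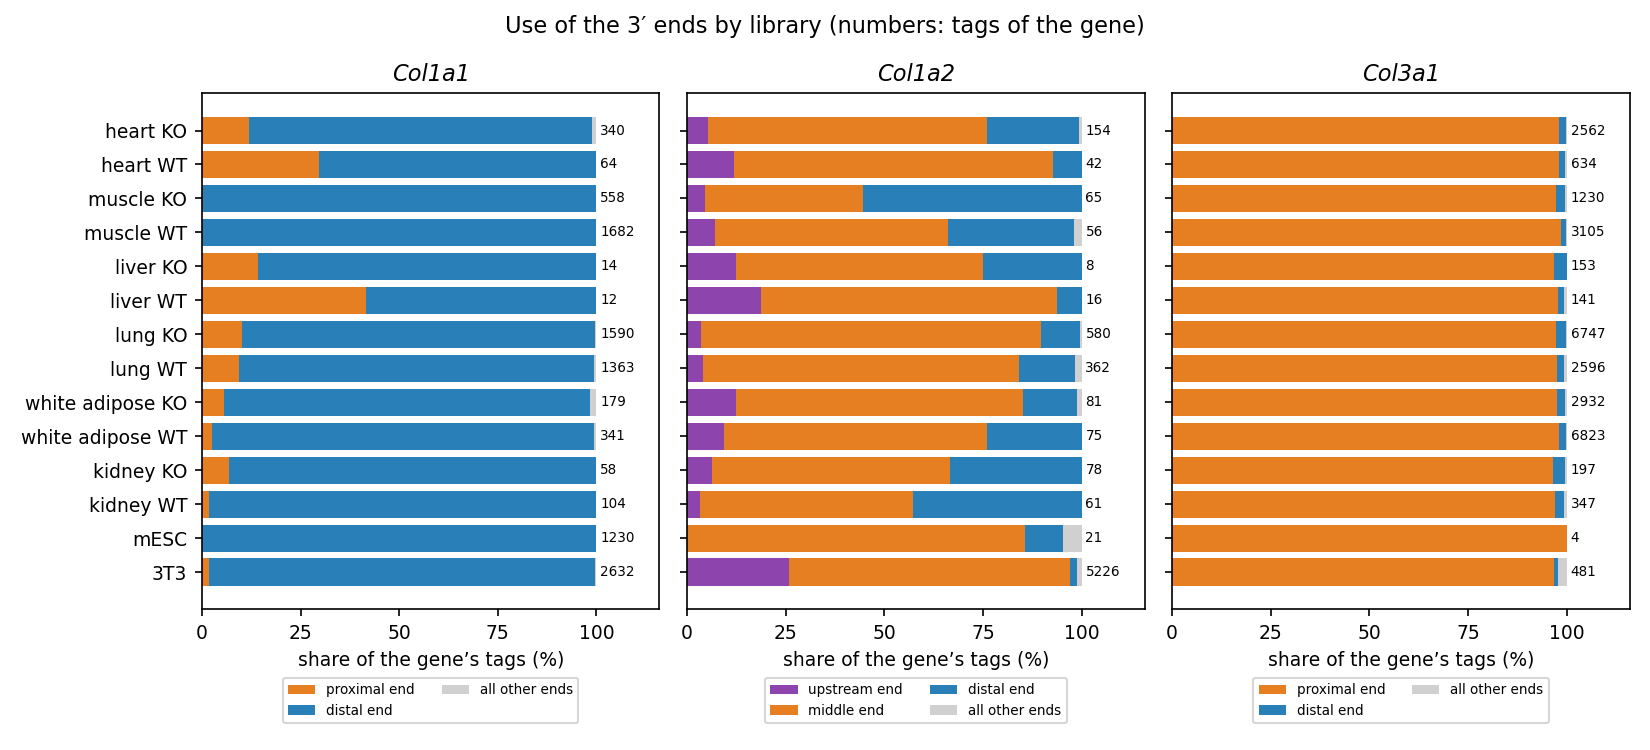
Share of each gene's tags (percent) at its described 3′ ends and at all other ends together, 1 bar per library, with the gene's tags in that library printed beside the bar. Col1a1 in muscle is almost wholly distal, Col1a2 has its widest distal part in muscle and kidney and its widest upstream part in 3T3, and Col3a1 is over 96% proximal in each library.

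**Figure D3:**
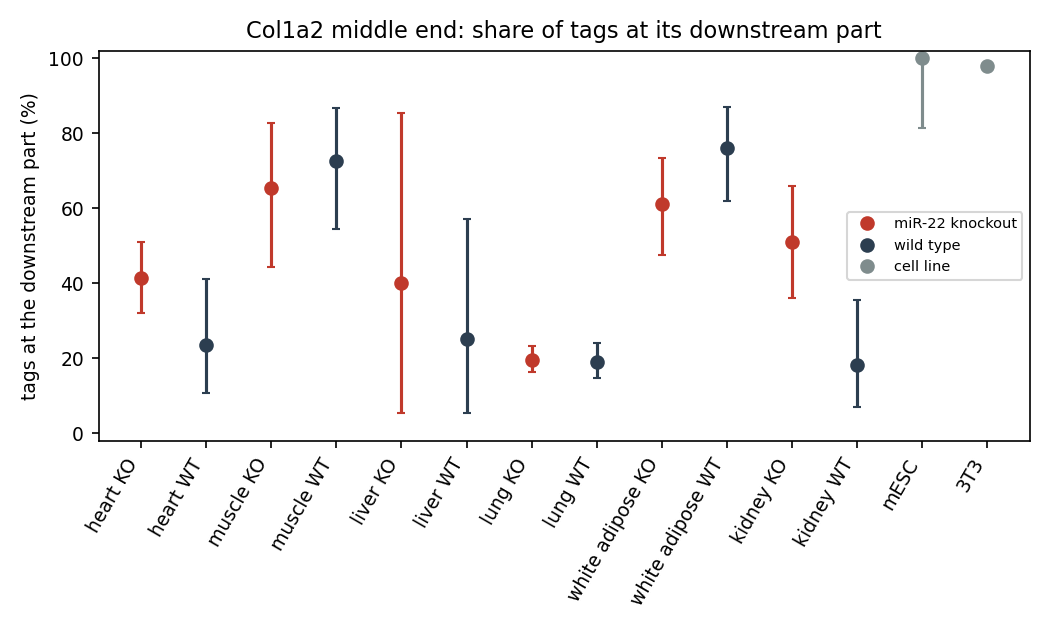
Share (percent) of the tags of the Col1a2 middle end that fall in its downstream cluster, 1 point per library with exact binomial 95% intervals. Lung sits near 19% in both genotypes, muscle and wat between 61.0% and 76.0%, and 3T3 at 98%.

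Col3a1 transcripts ended almost wholly at a proximal site, at 45405862 (interval 45405644 to 45405883), with a minor distal end 683 nt further at 45406545 (interval 45406491 to 45406552). The distal end held 1.94% of the gene's tags over all libraries. Its share was 1.56% in knockout and 1.58% in wild-type heart, 2.44% in knockout and 1.13% in wild-type muscle, and 3.27% in knockout and 1.42% in wild-type liver. It was 2.52% in knockout and 1.85% in wild-type lung, 2.18% in knockout and 1.75% in wild-type wat, and 3.04% in knockout and 2.31% in wild-type kidney. The share thus stayed within 1.13% to 3.27% in the tissue libraries, although the gene total spanned 38.2-fold. Some of this spread lay within a tissue. The exact binomial 95% intervals in muscle, 1.65% to 3.46% in knockout and 0.786% to 1.56% in wild type, did not overlap. In each other tissue the intervals of knockout and wild type overlapped. 3T3 had 1.25% from 6 tags, and mESC held no distal tag among 4. Inside the proximal site a small cluster with its peak at 45405765, 97 nt before the main peak, took 0.398% to 2.10% of the site's tags in knockout and 0.314% to 1.45% in wild-type tissue libraries, and 5.81% in 3T3 (27 tags, 95% interval 3.86% to 8.34%). The other 11 ends of Col3a1 held 92 tags, 0.329% of the gene, and none was seen only in 3T3.

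All 7 described ends passed the filter on low counts, so each was tested as a site of its own among 23856. The ends of one gene did not always follow its total. At the proximal end of Col1a1 heart was higher by 2.24 ± 0.39 (log2, adjusted p = 5.1e-06), the one call of the 7 ends in heart, where 16.3% of all sites were higher. The distal end of Col1a1 differed in heart by 0.16 ± 0.41 (adjusted p = 0.921). In muscle the distal end of Col1a1 rose by 4.03 ± 0.34 (adjusted p = 6.4e-16), whereas its proximal end differed by -1.37 ± 0.65 (adjusted p = 0.114) and was called lower with non-mitochondrial scaling (-2.06, adjusted p = 0.00716). The distal end of Col1a2 rose in muscle by 1.97 ± 0.41 (adjusted p = 1.3e-04), and its middle end differed by 0.17 ± 0.40 (adjusted p = 0.896). Without knockout muscle the Col1a2 distal difference was 1.40 (adjusted p = 0.111). Both ends of Col3a1 rose in muscle, which made 4 of 7 ends higher where 16.1% of all sites were, and the call of its distal end was lost without wild-type muscle (1.5, adjusted p = 0.0642) and with non-mitochondrial scaling (0.89, adjusted p = 0.0715).

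In lung 4 of 7 ends rose, where 26.4% of all sites did. Both ends of Col1a1 were among them, the proximal by 3.05 ± 0.34 (adjusted p = 1.9e-11) and the distal by 1.91 ± 0.35 (adjusted p = 9.9e-06). The middle end of Col1a2 rose by 2.03 ± 0.33 (adjusted p = 7.7e-07), with 0.68 ± 0.40 at its distal end (adjusted p = 0.182). With non-mitochondrial scaling the distal end of Col1a2 was called higher in lung (1.24, adjusted p = 0.00521), as was its upstream end (1.09, adjusted p = 0.0427). The distal end of Col3a1 rose by 0.90 ± 0.37 (adjusted p = 0.0491), a call lost under 11 of 17 alternatives. Without knockout lung it was 0.38 (adjusted p = 0.731). In wat both ends of Col3a1 rose, by 2.75 ± 0.32 at the proximal and 2.73 ± 0.35 at the distal end, 2 of 7 where 16.1% of all sites did.

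In liver 6 of 7 ends were lower, where 15.6% of all sites were, and the exception was the upstream end of Col1a2 (-1.66 ± 0.73, adjusted p = 0.0673). That end was called lower with non-mitochondrial scaling (-1.95, adjusted p = 0.0228). The falls ran from 1.81 ± 0.58 at the proximal to 5.09 ± 0.61 at the distal end of Col1a1. The smaller of these rested on few tags, and without knockout liver it was -1.23 (adjusted p = 0.323). In kidney none of the 3 ends of Col1a2 was called, although its distal end was called higher with non-mitochondrial scaling (1.05, adjusted p = 0.0364). Both ends of Col1a1 and both of Col3a1 were lower there, 4 of 7 where 9.31% of all sites were. Of these kidney calls the proximal end of Col1a1 was lost without wild-type kidney (-1.89, adjusted p = 0.0972). Those of the distal ends of Col1a1 and Col3a1 were lost without knockout kidney, at -1.40 (adjusted p = 0.112) and -1.88 (adjusted p = 0.0603).

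**Figure D4:**
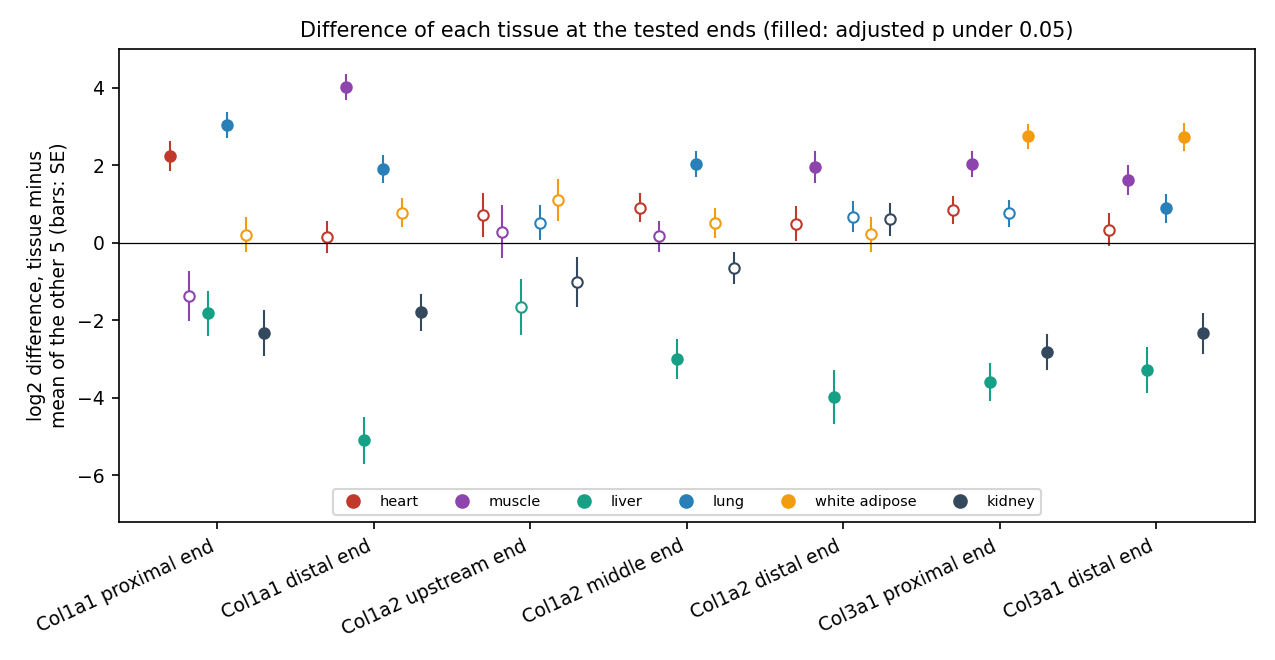
Log2 difference between each tissue and the mean of the other 5 (edgeR, bars are SE) at the 7 described ends; filled points have an adjusted p under 0.05. The proximal and distal ends of Col1a1 lie far apart in muscle, liver and heart and less so in lung, whereas the ends of Col3a1 lie close together in each tissue.

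Whether a tissue shifted the balance between neighbouring ends was tested in a model of end pairs, in which depth and gene level cancel. With ends limited to those holding at least 5% of the local tags, both Col1a2 pairs entered among 3983 pairs, and 0 of 12 tests passed, with 4 at an unadjusted p under 0.05. Over all pairs 6.80% were called in muscle, 11.4% in lung, 4.27% in kidney, 2.84% in heart, 4.09% in liver and 4.95% in wat. The nearest were the distal against the middle end in muscle, higher by 1.80 ± 0.57 (log2 odds, adjusted p = 0.0527), and the middle against the upstream end in lung, 1.5 ± 0.53 (adjusted p = 0.0608). In lung the distal against the middle end differed by -1.37 ± 0.54 (adjusted p = 0.0942) and in kidney by 1.29 ± 0.56 (adjusted p = 0.216).

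The pairs of Col1a1 and Col3a1 entered only when ends of 1% were admitted, among 5035 pairs. There Col1a1 shifted to its distal end in muscle by 5.50 ± 0.71 (adjusted p = 2.0e-06) and to its proximal end in heart, by -2.36 ± 0.55 (adjusted p = 0.00914). In liver it differed by -3.25 ± 0.91 (adjusted p = 0.0352), a value from 26 tags in both libraries. The distal against the middle end of Col1a2 passed in muscle at 1.80 ± 0.57 (adjusted p = 0.0492). That made 2 of 4 pairs more distal in muscle, where 3.52% of all pairs were, and 1 of 4 less distal in heart and in liver, where 2.18% of all pairs were in each. The muscle shift of Col1a1 kept its call under all 14 alternatives run, between 4.80 and 5.95. The heart shift did not pass without wild-type heart (-1.43, adjusted p = 0.641). The Col1a2 shift did not pass without either muscle library, at 2.48 (adjusted p = 0.168) without wild type and 1.07 (adjusted p = 0.674) without knockout, nor in 9 of 13 alternatives in all. The liver shift of Col1a1 lost its call without 6 of the 12 libraries in turn, with adjusted p up to 0.749 without wild-type liver. No pair was called in lung, wat or kidney, where 10.3%, 4.45% and 4.83% of all pairs were. The pair of Col3a1 was called in no tissue, with differences from -0.50 ± 0.47 in heart to 0.52 ± 0.57 in kidney.

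Between genotypes no collagen total, end or end pair was called. The fit over 6 tissues gave log2 differences, knockout minus wild type, of -0.10 ± 0.31 for Col1a1, 0.50 ± 0.30 for Col1a2 and 0.07 ± 0.29 for Col3a1 totals (edgeR adjusted p = 0.992, 0.808 and 0.994). None of the 3 totals and none of the 7 ends had an unadjusted p under 0.05, DESeq2 called none either, and over all sites 82 of 23856, or 0.344%, were called, as were 0.344% of the rows with gene totals. The largest difference among the ends was 0.66 ± 0.34 at the distal end of Col1a2 (adjusted p = 0.749). Of the end pairs the Col3a1 distal end had a mean share of 2.5% ± 0.61 in knockout and 1.67% ± 0.40 in wild type (SD, n = 6 each) and was higher in knockout in 5 of 6 tissues, heart being the exception. Its difference in the pair model was 0.52 ± 0.34 (adjusted p = 0.819), where 0.0397% of all pairs were called with ends of 1% admitted. At the 5% limit 0.0251% of all pairs were called and neither pair of Col1a2.

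Inside single tissues, 1 library against 1, the genes moved in different directions. In heart all 3 were higher in knockout, Col1a1 by a ratio of 3.87 (95% counting interval 2.96 to 5.14), Col3a1 by 2.94 (2.70 to 3.22) and Col1a2 by 2.67 (1.89 to 3.85). In muscle Col1a1 had a ratio of 0.479 (0.435 to 0.528) and Col3a1 of 0.572 (0.535 to 0.611), against 1.68 (1.15 to 2.44) for Col1a2. Wat and kidney showed the same directions. Col1a1 had ratios of 0.691 (0.572 to 0.829) in wat and 0.636 (0.453 to 0.885) in kidney. Col3a1 had 0.565 (0.541 to 0.590) in wat and 0.649 (0.541 to 0.774) in kidney. Col1a2 had 1.42 (1.02 to 1.97) in wat and 1.46 (1.03 to 2.07) in kidney, with lower limits close to 1. In lung Col3a1 had 1.83 (1.75 to 1.91) and Col1a1 0.820 (0.762 to 0.882), and the interval of Col1a2 at 1.13 held 1. In liver the intervals of all 3 held 1. With non-mitochondrial scaling the interval no longer held 1 for Col3a1 in liver (1.07 to 1.72) or for Col1a2 in lung (1.08 to 1.41), both higher in knockout. These intervals cover counting error only, no replicate stands behind them, and the difference between tissues was not tested.

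**Figure D5:**
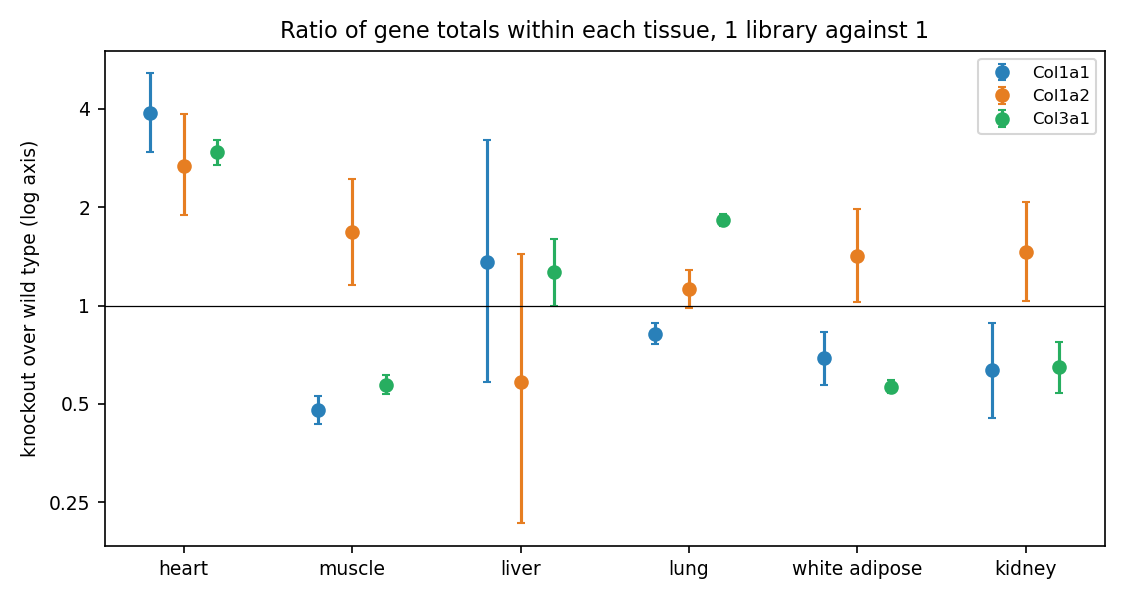
Ratio of the knockout to the wild-type library for each gene total within a tissue (log axis, TMM-scaled), with 95% intervals from counting error only. All 3 genes lie above 1 in heart, while in muscle, wat and kidney Col1a2 lies above 1 and Col1a1 and Col3a1 below it.

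Sites elsewhere in the genome followed each gene closely. Among 8001 tested sites outside the windows with a mean of at least 10 CPM in tissues, the closest to Col1a1 by Pearson correlation of log2(CPM + 1) over the 14 libraries was chromosome 11, 29642767 to 29642930 (+), with r = 0.92, a site highest in 3T3 (8002 CPM), whereas Col1a1 was highest in wild-type muscle. The closest to Col1a2 was chromosome 3, 108971337 to 108971387 (+), with r = 0.94, a site that like Col1a2 was highest in 3T3 (277 CPM). The closest to Col3a1 was chromosome 11, 55207980 to 55208272 (-), with r = 0.91, a site that like Col3a1 was highest in wild-type wat (703 CPM). The next 2 sites for each gene had r of 0.88 and 0.88 for Col1a1, 0.93 and 0.91 for Col1a2, and 0.91 and 0.90 for Col3a1. These r describe libraries that differ in depth and come mostly in pairs of the same tissue, and they were chosen as the highest of 8001.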

How the data were processed

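3P-seq poly(A) site lists from 14 mouse libraries were used. Per the labels' protocols they were made from total RNA; base calling used CASAVA 1.7 and alignment Bowtie on mm9, per the submitters' processing notes, and the Bowtie version and the way reads were grouped into sites are not given in the sources used here. Deposited values are estimated counts of tags at each site, unscaled by the authors, and 1.21% to 5.79% of a library's sites carry a fraction. Positions are counted from 1, and the offset of 1 named in 13 track lines was not applied, so a browser may draw a site 1 nt away.

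Overlapping or touching sites of a strand were merged over the 14 libraries, and a site took the 3′ end of its most abundant interval as its position. Sums were rounded for testing. edgeR 4.0.16 in R 4.3.3 kept 23856 sites (filterByExpr by tissue, minimum count 10), scaled them by TMM and fitted a quasi-likelihood model, with tissue and genotype as its factors, to the 12 tissue libraries, with 5 residual degrees of freedom and a common biological coefficient of variation of 0.310. Knockout and wild type of a tissue stood in for replicates of it. For gene totals the sites of each window were replaced by their sum (23852 rows). End pairs were neighbouring ends 100 to 5000 nt apart holding 20 tags or more in 6 or more of the tissue libraries (3983 pairs), fitted with a term for each library. Adjusted p are Benjamini-Hochberg over all rows of a fit, called under 0.05, and SE is the difference divided by the root of F. Shares have exact Clopper-Pearson intervals, for counting error only. The steps were also run on simulated counts with changes planted at well-covered sites and pairs, which does not show their power at ends with few tags. Alternatives were DESeq2 1.42.0 size factors and Wald test, non-mitochondrial totals, no filter, merging within 50 nt, pair limits of 1%, 20% and 100 tags, and leaving out each library. The members, lists and tests were chosen with earlier results of these data known. The most similar sites are the 3 of highest correlation per gene. Figures used Python 3.11.15 with scipy 1.17.1 and matplotlib 3.10.9.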

Additional observations from a re-analysis of the deposited data

Results flagged for a closer look

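The ratio of knockout to wild type went in opposite directions in different tissues for Col1a1 and Col3a1, with 1 library against 1 in each tissue and intervals on either side of 1 under both TMM and non-mitochondrial scaling. Col1a1 had a ratio of 3.87 in heart and 0.479 in muscle. Col3a1 had a ratio of 2.94 in heart and 0.565 in wat. The difference between these tissues was not tested, since there is no replicate of either genotype within a tissue. Under non-mitochondrial scaling the ratios were 5.47 and 0.565 for Col1a1 and 4.16 and 0.580 for Col3a1.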

How the results depend on the processing

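The labels give no replicate numbers, and knockout and wild type were paired by tissue, as tissue was a term of the fit. Between tissues 10 gene totals and 21 single ends were called, and the alternatives called 9 to 12 totals and 18 to 27 ends in all, some calls being gained and others lost. Leaving out each library gave 9 to 12 totals, 18 to 25 ends, 0 to 2 end pairs at the 5% limit and 2 to 4 at the 1% limit, against 10, 21, 0 and 4 with all libraries. At the 5% limit, where no pair of these genes was called, the 1% limit gave 4 calls and merging within 50 nt gave 1. With 100 tags per pair no pair of these genes was left at the 5% limit. No alternative called a genotype difference. Its sign was not stable for Col1a1, at -0.104 with all libraries, 0.0686 with non-mitochondrial scaling and between -0.515 and 0.116 with a library left out, or for Col3a1, at 0.0732 with all libraries, -0.244 without a term for tissue and between -0.246 and 0.273 with a library left out. Where a library is left out, the other of its tissue is assumed to vary like the rest. Alternatives gave 636 values for the differences called with all libraries and for the genotype differences of the totals, which had no call. Gained calls are therefore not among them. Of the 636, 589 kept direction and the state called or not called, 36 lost the call and 11 changed sign. All of the last were genotype differences of Col1a1 and Col3a1, and the cause was not tested. With under 30 tags per gene in liver for Col1a1 and Col1a2, and 21 and 4 tags of Col1a2 and Col3a1 in mESC, shares of ends there are limited by depth.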
